A study of Homo sapiens with 8 samples.

Results

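The 9 genes described here are tumour suppressors that have been reported as silenced by EZH2: RUNX3, DAB2IP, TIMP2, TIMP3, SLIT2, DKK1, VASH1, FBXO32 and DLC1. They were found by taking every array probe whose only gene symbol is a listed gene or an older alias of it. This gave 10 of 31741 probes and 8 of the 18336 genes with a probe. DLC1 had 3 probes and the other 7 genes had 1 each. No probe was matched to DAB2IP, whose RNA is not analysed here. The study exposed 2 human liver cancer lines, PLC5 (PLC/PRF/5) and HepG2, to GSK343, an inhibitor of the EZH2 methyltransferase, and measured RNA on 1-colour arrays. There were 2 arrays in each of 4 groups: PLC5 with 10 µM GSK343, PLC5 control, HepG2 with 10 µM GSK343 and HepG2 control. The sample titles give 16 h of exposure, whereas the culture protocol states a shorter time, so the time of 16 h is given with that reservation. The labels do not say whether the controls received solvent, nor whether replicate arrays represent separate cultures or repeats of 1 culture. The p-values therefore measure only the spread between these arrays, which may be technical.

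EZH2 is the catalytic subunit of Polycomb repressive complex 2 (PRC2), which methylates lysine 27 of histone H3. Genes that carry the trimethyl mark are kept at low transcription, and CpG-rich promoters are the usual sites of this complex in mammalian cells. GSK343 competes with the methyl donor S-adenosylmethionine, and cells then lose the mark as histones are diluted and exchanged. Neither the mark nor the binding of EZH2 was measured here. Several of the listed genes are known to restrain invasion or growth signalling in liver and other tumours.

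The promoters of TIMP3, DKK1 and RUNX3 are printed because these genes differed most between the control cells of the lines. Each is the RefSeq window from 250 bases before to 50 bases after an annotated start, 300 bases on the gene's strand in GRCh38.p14, with every CpG in capitals. The TIMP3 window lies at chr22:32801455-32801754 on the plus strand and holds 31 CpG. The DKK1 window lies at chr10:52314031-52314330 on the plus strand and holds 20. RUNX3 has 2 windows on the minus strand, the upstream one at chr1:24964961-24965260 with 15 CpG and the downstream one at chr1:24930227-24930526 with 38, and which start its probe reports is not known.
TIMP3: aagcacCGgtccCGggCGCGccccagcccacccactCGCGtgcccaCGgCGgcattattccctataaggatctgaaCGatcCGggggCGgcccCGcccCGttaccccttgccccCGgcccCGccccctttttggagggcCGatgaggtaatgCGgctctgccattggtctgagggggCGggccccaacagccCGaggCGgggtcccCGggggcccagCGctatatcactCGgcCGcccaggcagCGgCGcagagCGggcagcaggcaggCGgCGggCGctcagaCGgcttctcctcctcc
DKK1: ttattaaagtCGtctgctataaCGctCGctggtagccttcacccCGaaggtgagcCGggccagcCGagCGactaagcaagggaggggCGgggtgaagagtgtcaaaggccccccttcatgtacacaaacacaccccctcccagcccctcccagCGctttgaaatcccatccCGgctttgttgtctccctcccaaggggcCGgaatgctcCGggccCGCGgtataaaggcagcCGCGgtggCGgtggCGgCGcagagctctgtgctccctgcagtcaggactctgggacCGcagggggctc
RUNX3 upstream: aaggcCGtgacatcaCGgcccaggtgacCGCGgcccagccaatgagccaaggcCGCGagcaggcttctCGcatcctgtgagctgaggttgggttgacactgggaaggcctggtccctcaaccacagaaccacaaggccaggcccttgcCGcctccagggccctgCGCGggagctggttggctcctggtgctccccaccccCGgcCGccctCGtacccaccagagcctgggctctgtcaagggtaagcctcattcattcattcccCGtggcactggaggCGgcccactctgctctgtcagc
RUNX3 downstream: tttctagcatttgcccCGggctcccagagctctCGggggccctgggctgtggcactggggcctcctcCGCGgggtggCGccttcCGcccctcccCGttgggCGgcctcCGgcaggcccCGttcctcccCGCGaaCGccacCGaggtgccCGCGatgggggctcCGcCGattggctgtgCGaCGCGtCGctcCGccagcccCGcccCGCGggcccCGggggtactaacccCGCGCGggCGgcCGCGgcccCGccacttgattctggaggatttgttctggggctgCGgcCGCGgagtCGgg

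The median over 35116 RefSeq promoter windows of the same length was 14 CpG, so all 4 printed windows lie above it, the upstream RUNX3 window by 1. At least as many CpG as in the downstream RUNX3 window were present in 9.91% of windows, as in TIMP3 in 20.65%, as in DKK1 in 41.16% and as in the upstream RUNX3 window in 48.94%. The TATA letters TATAAA, searched on both strands, occurred once among the 4 windows, in DKK1, and in 11.5% of all windows. The letters CTTTGA, a core recognised by TCF factors of the Wnt pathway, occurred at 2 places in the DKK1 window and were present in 12.9% of all windows. The GC box letters GGGCGG occurred 5 times in TIMP3, 4 times in the downstream RUNX3 window and 1 time each in the other two, against 45.0% of all windows with at least 1. Of the other members, the SLIT2 window held 36 CpG and the VASH1 window 32. The 3 windows of DAB2IP, which had no probe, held 11, 36 and 5. No window of TIMP2, DLC1 or FBXO32 was read here.

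In the RefSeq annotation of GRCh38.p14 the gene of TIMP3 spans chr22:32801705-32863041, TIMP2 chr17:78852977-78925387, DKK1 chr10:52314281-52317657 and RUNX3 chr1:24899511-24965138. SLIT2 spans chr4:20251905-20620561, VASH1 chr14:76761468-76783015, DLC1 chr8:13083361-13604620 and FBXO32 chr8:123497889-123541206. Where in each transcript the probes lie is not given in the sources used here.

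Intensities below are after quantile normalization of all 8 arrays, on a linear scale and without a unit. Changes are log2 fold changes with their standard error from a limma fit across all 31741 probes, and a probe was called when its Benjamini-Hochberg adjusted p over all of them was below 0.05. Intensities of different probes cannot be set against each other. An intensity below 64 is called dim here; about 21.8% of probes were dim on an array. Where all arrays of a group were dim, a fold is given as at least the ratio to 64, and where this held for both groups no fold is given.

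Replicate arrays resembled each other closely and the lines stood apart. Correlations of log2 intensity over all probes were 0.984 to 0.989 within a group, 0.978 to 0.987 between treated and control arrays of a line and 0.887 to 0.903 between the lines. PLC5 control array 1 stood apart at the low end: 1.58% of its deposited values lay below 64, against 16.4% to 30.4% on the other 7 arrays. Without that array the member probes called numbered 0 in PLC5 after GSK343, against 1 with it, and 6 between the control cells, against 7 with it. Of 9 measured liver markers, all were above 64 in every group. In PLC5 control, 8 were lower than in HepG2 control cells, including ALB at -7.61 on the log2 scale, and 1 (FGB) was higher. After GSK343 only FGB was called, at -0.40 in HepG2, where its deposited values overlapped. The FGB change in PLC5 was -0.42 and was not called (adjusted p 0.0886). Summed liver marker intensity was 344592 and 318681 in PLC5 with GSK343, 317666 and 350742 in PLC5 control, 1285181 and 1267092 in HepG2 with GSK343, and 1162013 and 1232378 in HepG2 control. Among 19 markers of fibroblast, endothelial, blood and bile duct cells, no gene was called after GSK343 in either line. At an unadjusted p under 0.05 there were 3 of them in HepG2 and 2 in PLC5, against 28.1% and 16.1% of all genes. Of 4 bile duct markers, 3 were called lower in PLC5 control than in HepG2 control cells, and 1 (KRT7) higher. Their summed intensity was 107218 and 101090 in HepG2 control, against 9259 and 9105 in PLC5 control. KRT7 read 42.1 and 59.1 in HepG2 control, against 547 and 594 in PLC5 control.

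In control cells the set was split between the lines. RUNX3, VASH1 and SLIT2 were higher in PLC5 than in HepG2, TIMP3 and DKK1 were lower, the 2 bright DLC1 probes went opposite ways, and TIMP2 and FBXO32 did not pass the test. In all, 7 of the 10 probes were called, 4 higher and 3 lower, where 55.3% of all probes were called in this comparison, 25.8% higher and 29.5% lower, and the groups did not overlap for 9 of the 10, against 76.9% of all probes. The median member difference was -0.46, against -0.09 over all probes. The bar plot of the control difference shows each of the 10 probes.

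**Figure D1:**
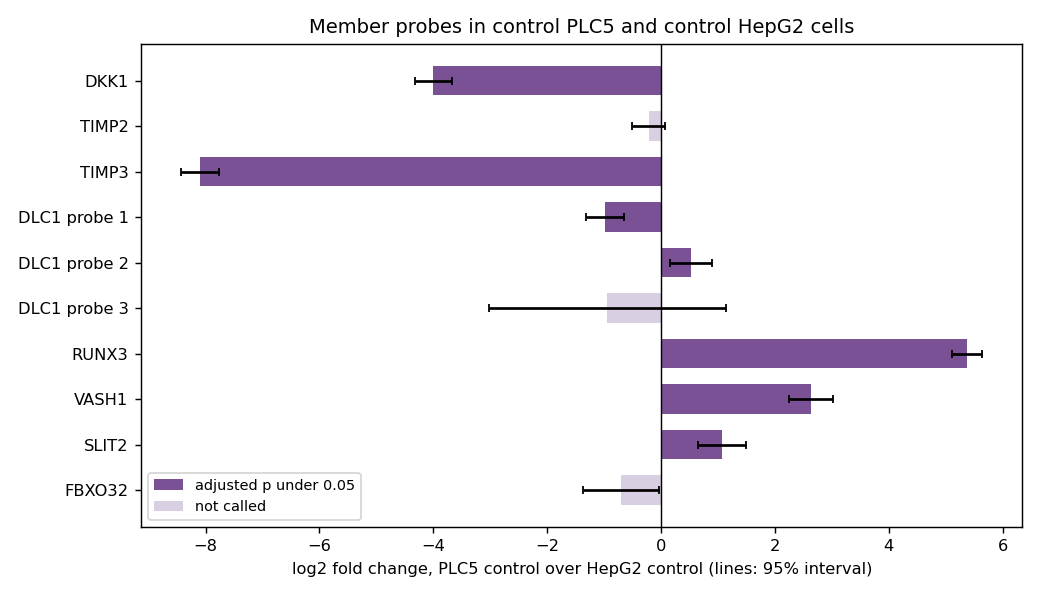
Horizontal bars give the log2 fold change of each member probe in PLC5 control over HepG2 control cells, with 95% intervals from the limma fit, 2 arrays a group; dark bars passed an adjusted p of 0.05. TIMP3 at -8.10 and RUNX3 at 5.38 lie at the ends of the range.

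DKK1, a secreted antagonist that blocks Wnt signalling by binding the co-receptors LRP5 and LRP6, fell in HepG2 cells after GSK343. Its intensity was 3132 and 3414 in HepG2 with GSK343, against 5627 and 5497 in HepG2 control. Both treated arrays lay below both control arrays, in the deposited values too. The change was -0.77 ± 0.15, a fall of 1.70-fold, with an adjusted p of 0.0191. In PLC5 cells the intensity was 240 and 239 with GSK343, against 306 and 396 in control. Here too the treated arrays lay below the controls, but the change of -0.54 ± 0.15 did not pass the test (adjusted p 0.139). The changes in the lines were not shown to differ: PLC5 minus HepG2 was 0.22, with an interval of -0.24 to 0.69 and an adjusted p of 0.602. The HepG2 call was lost without any 1 of the 4 HepG2 arrays, with adjusted p from 0.0663 to 0.1, and without normalization, where the change was -0.34 (adjusted p 0.255). In control cells DKK1 was 15.96-fold lower in PLC5 than in HepG2 (-4.00 ± 0.15, adjusted p 4.54e-08).

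TIMP2 and TIMP3 are secreted inhibitors of matrix metalloproteinases, TIMP3 being the one held in the extracellular matrix. TIMP3 had the widest difference of the set between the lines. Its intensity was 18.1 and 21.3 in PLC5 with GSK343, and 42.9 and 35.3 in PLC5 control. It was 8605 and 8585 in HepG2 with GSK343, and 10802 and 10488 in HepG2 control. All 4 PLC5 arrays were dim and all 4 HepG2 arrays bright, so that TIMP3 was at least 166-fold lower in PLC5 control than in HepG2 control cells (-8.10 ± 0.15, adjusted p 1.07e-09). In HepG2 both treated arrays lay below both controls after normalization, and the change of -0.31 ± 0.15 did not pass the test (adjusted p 0.211). The deposited HepG2 values overlapped, at 7022 and 7934 with GSK343 against 7636 and 6735 in control, and without normalization the change was 0.06.

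In PLC5 the TIMP3 probe passed the test after GSK343 at -0.99 ± 0.15 with an adjusted p of 0.0222, but both groups were dim, so no fold is given. Its deposited intensities were 11 and 32 in PLC5 with GSK343, against 95 and 14 in PLC5 control. The groups overlapped before normalization, and the high control value came from the array whose low values stood apart. The standard error follows the mean over all 8 arrays, which the bright HepG2 arrays raise. Without PLC5 control array 1 the change was -0.84 with an adjusted p of 0.111, and with only the 4 PLC5 arrays in the fit the adjusted p was 0.257. A floor of 64 left a change of 0. Over 21 alternatives the call was made in 9. The change is therefore reported as a test result on a dim probe and not as a fall of TIMP3.

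TIMP2 was bright in both lines and was not called in any of the comparisons. Its intensity was 17454 and 20700 in PLC5 with GSK343, against 19298 and 22783 in PLC5 control, and these groups overlapped. In HepG2 it was 17989 and 19171 with GSK343, against 25458 and 23386 in control, with both treated arrays below both controls, though the deposited HepG2 values overlapped. The HepG2 change of -0.39 ± 0.13 had an adjusted p of 0.0875 and the PLC5 change of -0.14 ± 0.13 one of 0.673. Between the control cells TIMP2 was -0.22 ± 0.13 in PLC5 relative to HepG2 (adjusted p 0.171), and this sign turned with the scaling, to 0.37 with an adjusted p of 0.0313 when each line was normalized alone, and to 0.53 with an adjusted p of 0.0141 without normalization.

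DLC1 encodes a GTPase-activating protein that switches off RhoA and related small GTPases, and lies on a stretch of chromosome 8 often lost in liver cancer. Its 3 probes disagreed. The brightest, probe 1, read 1222 and 1035 in PLC5 with GSK343 and 1093 and 1348 in PLC5 control. It read 2679 and 2589 in HepG2 with GSK343 and 2541 and 2288 in HepG2 control. It was called in neither line, at -0.11 ± 0.15 in PLC5 (adjusted p 0.795) and 0.13 ± 0.15 in HepG2 (adjusted p 0.615).

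DLC1 probe 2 rose in HepG2. It read 965 and 778 in PLC5 with GSK343 and 734 and 636 in PLC5 control. In HepG2 it read 1060 and 875 with GSK343, against 487 and 461 in control, with the groups well apart. The HepG2 change was 1.02 ± 0.16, a rise of 2.03-fold with an adjusted p of 0.0101. The PLC5 change was 0.34 ± 0.16 (adjusted p 0.375), with both treated arrays above both controls, and PLC5 minus HepG2 was -0.68 ± 0.23 (adjusted p 0.183). The HepG2 call was lost without HepG2 GSK343 array 1 (adjusted p 0.0657) and without HepG2 control array 2 (adjusted p 0.0522). Which DLC1 transcripts the probes report is not given in the sources used here.

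DLC1 probe 3 was dim on all 8 arrays, between 3.88 and 35.3, and is not read further. Between the control cells, probe 1 was 1.99-fold lower in PLC5 than in HepG2 (-0.99 ± 0.15, adjusted p 0.000424), whereas probe 2 was 1.44-fold higher (0.53 ± 0.16, adjusted p 0.02). The probe 1 difference was 0.01 without normalization, and its call was lost there and when each line was normalized alone. The probe 2 call was lost without PLC5 control array 1 or HepG2 control array 2. The level of DLC1 relative to the other line thus depends on the probe.

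**Figure D2:**
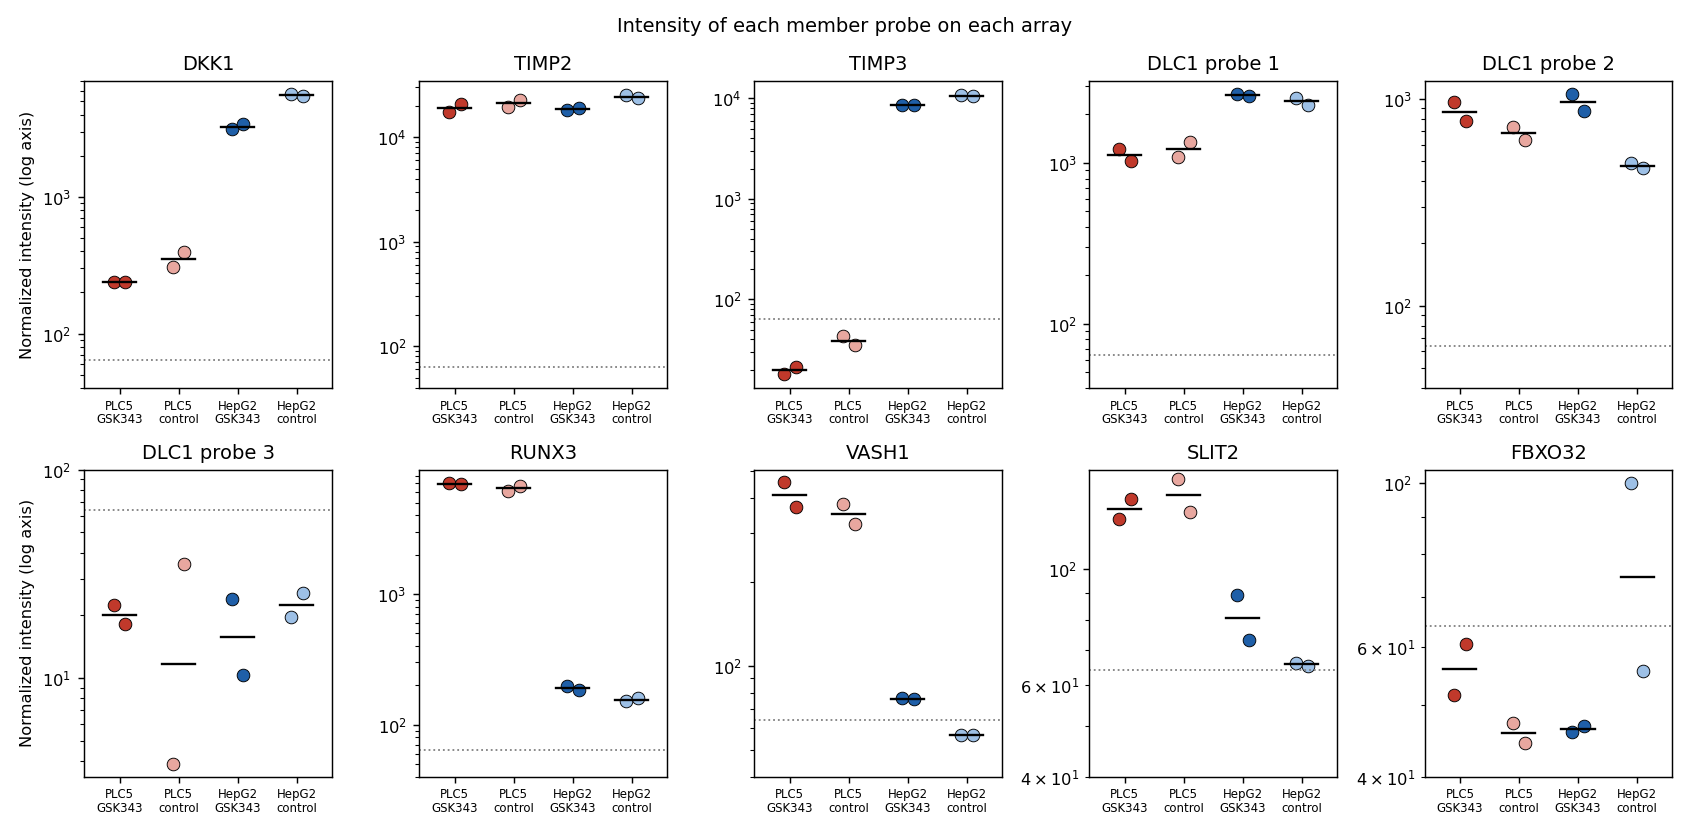
Each panel plots 1 member probe on a log axis of normalized intensity; points are the 2 arrays of a group, short lines their geometric mean, and the dotted line an intensity of 64. TIMP3 lies below 64 on all 4 PLC5 arrays, RUNX3 lies between 6132 and 7045 in PLC5 and between 150 and 196 in HepG2, and the DKK1 arrays with GSK343 lie below their controls in each line.

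RUNX3 is a transcription factor of the Runt family that acts downstream of TGF-beta. It was bright in PLC5, at 7045 and 6932 with GSK343 and 6132 and 6714 in control. In HepG2 it read 196 and 185 with GSK343 and 150 and 159 in control. After normalization the treated arrays lay above the controls in both lines. Neither change passed the test: 0.12 ± 0.12 in PLC5 (adjusted p 0.703) and 0.30 ± 0.12 in HepG2 (adjusted p 0.143). The deposited PLC5 values overlapped, at 9702 and 7866 with GSK343 against 7770 and 7896 in control. The sign of the PLC5 change turned under 1 of 21 alternatives. In control cells RUNX3 was 41.5-fold higher in PLC5 than in HepG2 (5.38 ± 0.12, adjusted p 2.67e-09). Without normalization, where the median of all probes shifts by 0.50 in HepG2, the HepG2 change of RUNX3 was 0.73 with an adjusted p of 0.0204.

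VASH1 encodes vasohibin 1, an inhibitor of angiogenesis that also removes the C-terminal tyrosine of tubulin. It read 456 and 370 in PLC5 with GSK343 and 382 and 323 in PLC5 control, which overlapped. In HepG2 it read 76.4 and 75.8 with GSK343, and 56.6 on both control arrays, which were dim. Neither change was called, at 0.23 ± 0.17 in PLC5 (adjusted p 0.602) and 0.43 ± 0.17 in HepG2 (adjusted p 0.147). In control cells VASH1 was at least 5.49-fold higher in PLC5 than in HepG2 (2.63 ± 0.17, adjusted p 1.81e-06).

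SLIT2, a secreted guidance ligand for ROBO receptors, read 125 and 137 in PLC5 with GSK343 and 149 and 129 in PLC5 control, which overlapped. In HepG2 it read 89.1 and 73.1 with GSK343 and 66.1 and 65.3 in control, just above the dim range. Its changes were -0.09 ± 0.19 in PLC5 (adjusted p 0.887) and 0.30 ± 0.19 in HepG2 (adjusted p 0.336). In control cells it was 2.11-fold higher in PLC5 than in HepG2 (1.08 ± 0.19, adjusted p 0.00105), a call lost when arrays were only centred on their medians (adjusted p 0.0929).

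FBXO32 encodes atrogin-1, an F-box protein of an SCF ubiquitin ligase best known from muscle wasting. It was dim on 7 of 8 arrays: 51.6 and 60.5 in PLC5 with GSK343, 47.3 and 44.4 in PLC5 control, and 46 and 46.9 in HepG2 with GSK343, against 100 and 55.6 in HepG2 control. HepG2 control array 1 carried the only value above 64. No comparison of FBXO32 passed the test, with -0.68 ± 0.30 in HepG2 (adjusted p 0.179) and 0.29 ± 0.30 in PLC5 (adjusted p 0.726).

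Few of the member probes passed the test after GSK343. In HepG2, 2 of 10 probes were called, DLC1 probe 2 higher and DKK1 lower, where 8.1% of all probes were called, 4.85% higher and 3.25% lower. This split depends on the scaling: without normalization 3 member probes were called in HepG2, all higher (DLC1 probes 1 and 2 and RUNX3), and 98.8% of the calls over all probes were higher, against 59.9% after normalization. In PLC5, 1 of 10 was called, the dim TIMP3 probe on the lower side, where 0.87% of all probes were called and 0.214% were called lower. Taken unadjusted, p fell under 0.05 for 6 probes in HepG2, 3 higher and 3 lower, and 2 in PLC5, both lower, against 27.1% and 14.5% of all probes. The groups did not overlap for 9 probes in HepG2 and 5 in PLC5, against 58.2% and 45.1% of all probes. The median change was -0.09 in HepG2 and 0.02 in PLC5, against -0.02 and -0.01 over all probes. With 1 probe a gene the medians were -0.09 and -0.10, against -0.01 and -0.01 over all genes. Of the 10 probes, 5 had a positive and 5 a negative change in each line. Changes ran from -0.77 to 1.02 in HepG2 and from -0.99 to 0.79 in PLC5. Both ends in PLC5 came from probes dim in that line, TIMP3 and DLC1 probe 3. The other probes ran there from -0.54 (DKK1) to 0.34 (DLC1 probe 2).

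The test of the difference between the lines called 0 of 10 probes in limma, where it called 0.696% of all probes. Of the members, 3 had an unadjusted p under 0.05, which 17.4% of all probes had: DLC1 probe 2 at -0.68 (adjusted p 0.183), TIMP3 and FBXO32. For TIMP3, dim on every PLC5 array, the fitted difference was -0.68 (adjusted p 0.156) and turned to 0.31 with a floor of 64. For FBXO32, dim on 7 of 8 arrays, it was 0.97 (adjusted p 0.279) and 0.32 with that floor. The plot of changes with their intervals shows that the intervals of DKK1 lie below 0 in both lines.

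**Figure D3:**
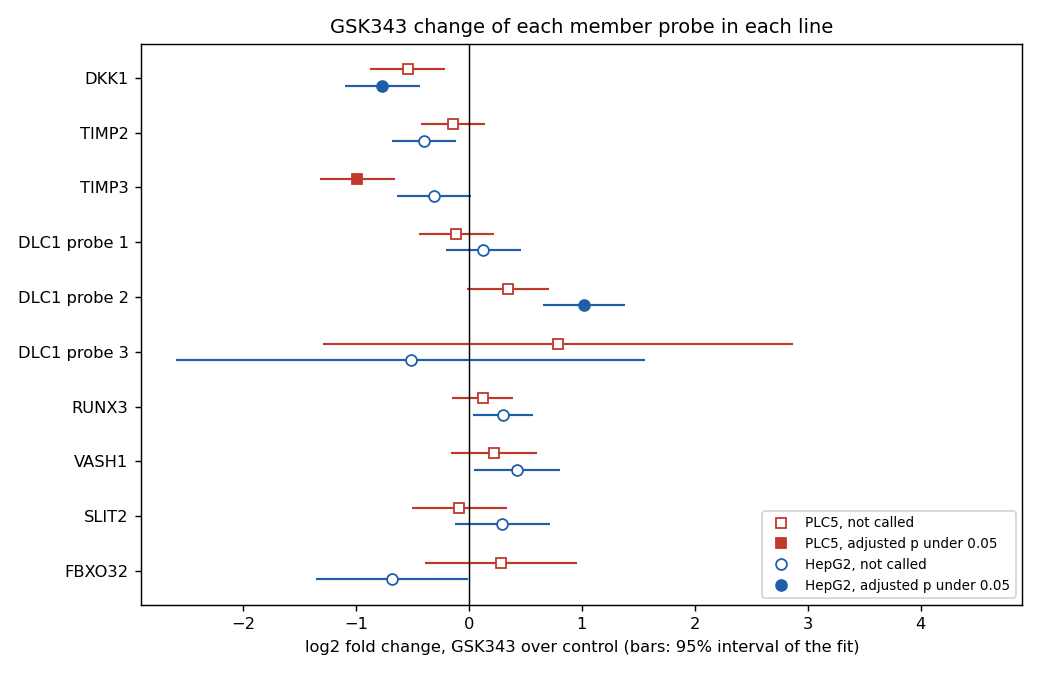
Points give the log2 fold change of GSK343 over control for each member probe, squares for PLC5 and circles for HepG2, with 95% intervals of the limma fit, 2 arrays a group; filled points passed an adjusted p of 0.05. The filled points are TIMP3 in PLC5 at -0.99, where all arrays are dim, and DKK1 at -0.77 and DLC1 probe 2 at 1.02 in HepG2.

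The relatives and partners of the members, such as other metalloproteinase inhibitors, ROBO receptors and Wnt co-receptors, were read from a list of 43 genes of which 41 had a probe. In HepG2, 7 were called, 4 higher and 3 lower, against 8.8% of all genes, with a median of 0.05 against -0.01. Between the control cells 29 of the 41 were called, 13 higher and 16 lower in PLC5, where 58.5% of all genes were called. RECK, a membrane-anchored inhibitor of metalloproteinases, read 218 and 222 in HepG2 with GSK343, against 87.1 and 60.5 in control. It rose 3.03-fold (1.60 ± 0.22, adjusted p 0.0068) and was called under all 20 alternatives that could be run. In PLC5, RECK read 330 and 246 with GSK343 and 329 and 264 in control, which overlapped. PLC5 minus HepG2 was -1.65 for RECK, with an adjusted p of 0.0631. The test of this difference called 0 of the 41 in limma, where 0.84% of all genes were called. At an unadjusted p under 0.05 there were 9 of them, against 18.5% of all genes.

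KREMEN1, a receptor that binds DKK1 together with LRP6, read 2342 and 2343 in HepG2 with GSK343, against 1130 and 1154 in control, and rose 2.05-fold (1.04 ± 0.14, adjusted p 0.00614). Its 3 dimmer probes were not called in HepG2, at 1.01, 0.26 and -0.77. In PLC5 the brightest KREMEN1 probe was at 0.38 ± 0.14 (adjusted p 0.265). SKP1, the adaptor that joins F-box proteins such as FBXO32 to their ligase, fell in HepG2 (-0.70 ± 0.14, adjusted p 0.0245). That call was lost without any 1 of the HepG2 arrays, with median centring and without normalization. It was also lost without a variance trend and with a replicate block. Without normalization the SKP1 change was -0.18. Its other probe was at -0.34 and not called.

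VASH2, the paralogue of VASH1, rose in both lines. It read 2500 and 2506 in PLC5 with GSK343, against 1572 and 1528 in PLC5 control. In HepG2 it read 2132 and 2007 with GSK343, against 1289 and 1316 in control. The groups were far apart relative to the spread of arrays in each line. The changes were 0.69 ± 0.11 in PLC5 (adjusted p 0.0291) and 0.67 ± 0.11 in HepG2 (adjusted p 0.0121). It was the only relative called in PLC5 among the 41, where 1.07% of all genes were called. The HepG2 call of VASH2 was made under 16 of 21 alternatives. It was lost without any 1 of the HepG2 arrays and with a replicate block. The PLC5 call was made under 8 of 21 and was lost without any 1 of the 8 arrays. It was also lost without normalization, without a variance trend, with only the 4 PLC5 arrays and with a replicate block by same or crossed array numbers. The PLC5 change lay between 0.59 and 0.78 under the alternatives. A second, dimmer VASH2 probe was not called, at 0.60 in PLC5 and 0.14 in HepG2.

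A list of 28 other genes reported as silenced by EZH2 had 25 with a probe. In HepG2, 4 were called, 3 higher and 1 lower, against 8.8% of all genes, with a median of -0.09. In PLC5 limma called 0, where 1.07% of all genes were called, and the median was 0.08. At an unadjusted p under 0.05 there were 12 of the 25 in PLC5 and 11 in HepG2, against 16.1% and 28.1% of all genes. The 12 in PLC5 had changes of both signs, from -0.82 to 1.12. Those in HepG2 also had both signs. Between the control cells 21 of the 25 were called, 11 higher and 10 lower in PLC5, where 58.5% of all genes were called. CDH1, the epithelial cadherin, read 1006 and 837 in HepG2 with GSK343, against 531 and 535 in control, a rise of 1.72-fold (0.78 ± 0.14, adjusted p 0.015). CADM1, a cell adhesion molecule, read 7827 and 5802 in HepG2 with GSK343, against 4020 and 4268 in control, a rise of 1.63-fold (0.70 ± 0.17, adjusted p 0.0388). The call of CDH1 was lost without either HepG2 control array or HepG2 GSK343 array 1, and with a replicate block. That of CADM1 was made under 10 of 21 alternatives. It was lost without any 1 of the HepG2 arrays or of the PLC5 control arrays. It was also lost with median centring, no normalization, a floor of 64, no variance trend and a replicate block.

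CDKN2B, the CDK inhibitor p15, fell in HepG2. It read 303 and 310 with GSK343, against 685 and 611 in control, a change of -1.08 ± 0.13 (adjusted p 0.0037). In PLC5 it read 1691 and 1874 with GSK343 and 1497 and 1338 in control, at 0.33 ± 0.13 (adjusted p 0.293). Its HepG2 change was -0.54 without normalization (adjusted p 0.089). A second, dimmer CDKN2B probe was at -0.80 in HepG2 and was not called (adjusted p 0.0773), and its deposited values overlapped. RARB, a retinoic acid receptor, passed the test in HepG2 at 0.65 ± 0.17 (adjusted p 0.0467), but all 4 HepG2 arrays were dim, between 24.4 and 48.3, so no fold is given.

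Among 13 PRC2 subunits, related writers and histone H3 lysine 27 demethylases, limma called 0 in either line, where 8.8% of all genes were called in HepG2 and 1.07% in PLC5. At an unadjusted p under 0.05 there were 3 in HepG2 and 2 in PLC5, against 28.1% and 16.1% of all genes. EZH2, the target of GSK343, read 4790 and 5218 in PLC5 with GSK343, against 7022 and 7465 in control, at -0.53 ± 0.11 (adjusted p 0.0811). In HepG2 EZH2 read 7651 and 6937 with GSK343, against 8643 and 9562 in control, at -0.32 ± 0.11 (adjusted p 0.117). After normalization EZH2 RNA lay lower on the arrays with GSK343 than on their controls in both lines, without passing the test. In HepG2 the direction depends on the scaling: without normalization the change was 0.06, and in PLC5 it was -0.50. EZH1, the other catalytic subunit, was at -0.05 ± 0.16 in PLC5 and 0.10 ± 0.16 in HepG2, with adjusted p of 0.923 and 0.736.

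**Figure D4:**
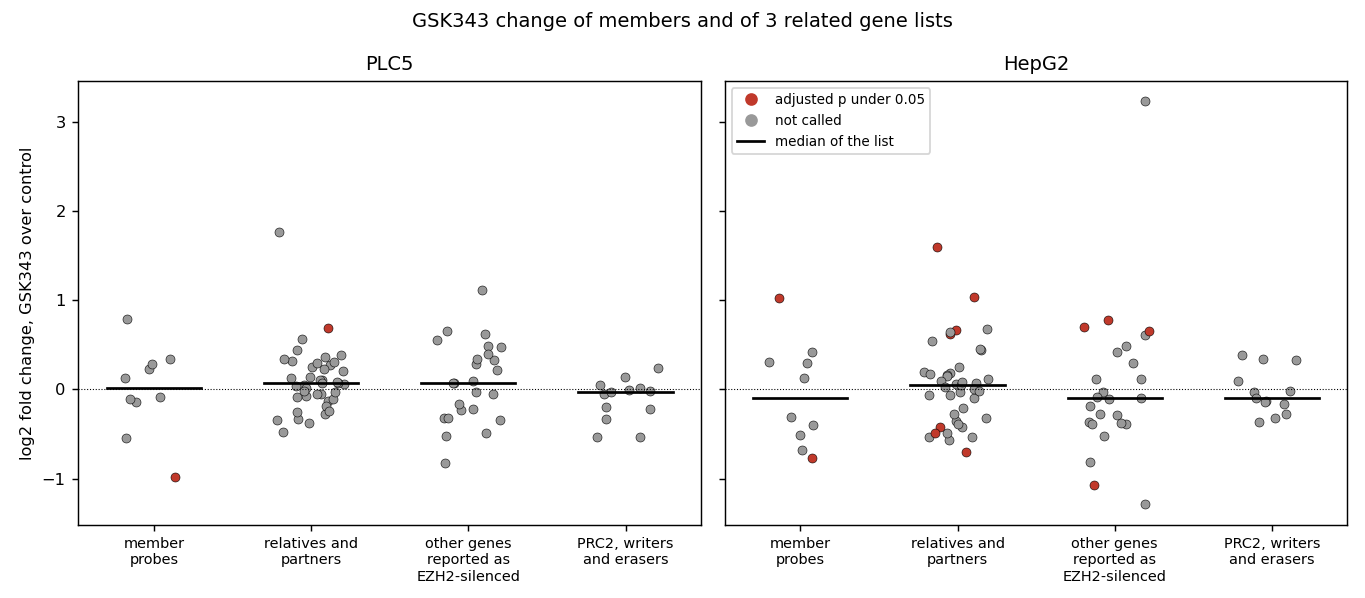
Each point is the log2 fold change of GSK343 over control of 1 member probe or 1 listed gene, in PLC5 on the left and HepG2 on the right; red points passed an adjusted p of 0.05 and bars are list medians. Called points lie on both sides of 0 in HepG2, and the medians lie between -0.10 and 0.08. The highest HepG2 point, RASSF1 at 3.23 ± 4.35, was not called. Its replicate arrays disagreed, at 2455 and 1 with GSK343 against 13.9 and 2 in control, so it is not read as a rise.

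The genes whose pattern over the 8 arrays was most like that of a called member were found by Pearson correlation of log2 intensity among 10720 genes. For TIMP3 they were RFXAP (r 0.9999), FERMT1 (0.9997) and SCGN (0.9994), each lower in PLC5 than in HepG2 control cells, by -2.24, -3.90 and -5.69 on the log2 scale. For DKK1 they were SOCS1 (0.9984), MTHFD2L (0.9983) and GLYR1 (0.9982), at -4.21, -1.49 and -1.38. These correlations rest largely on the difference between the lines, since 4 arrays of each line make up the points. SOCS1, a suppressor of cytokine signalling, also passed the test in HepG2 after GSK343 (-0.64, adjusted p 0.0186), where 8.8% of all genes were called. It was picked for its likeness to DKK1 on these same arrays, so its call is not an independent result. The other 5 genes did not pass the test in either line.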

How the data were processed

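Total RNA of PLC5 and HepG2 cells, with 10 µM GSK343 or control, was amplified and labelled with Cy5 for 1-colour arrays (per the labels' protocols). The authors deposited linear intensity values, 1 for each of 31741 probes and 8 arrays, as whole numbers with some at or below 0; how the authors corrected the background and which scanner they used is not given in the sources used here. No normalization between arrays was visible, so quantile normalization was applied across all 8 arrays before a floor of 1 and the log2 step. Detection flags were not used here. The number of arrays, 2 a group, limits the precision.

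Of the probes, 24740 had 1 gene symbol in the platform annotation, 977 several and 6024 none; symbols were updated through the RefSeq gene table of GRCh38.p14 (22722 current, 1948 updated, 70 kept). Probes with several symbols were not named. A gene with several probes is described by the probe of the highest mean over the 8 arrays, with its other probes beside it.

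Group means were fitted with limma 3.58.1 in R 4.3.3 (lmFit and eBayes with an intensity trend, 4 residual and 4.75 prior degrees of freedom) on all 8 arrays. Contrasts were GSK343 minus control in each line, their difference (PLC5 minus HepG2) and PLC5 minus HepG2 control. Tests were two-sided, with Benjamini-Hochberg adjustment across every probe of the table. The lines share no control arrays but share each probe's estimated spread. The fit was checked on simulated arrays, with known changes added in HepG2 with GSK343 to probes above the median intensity. The simulated noise followed the spread of this same fit. Changes of dim probes and faults of single arrays were not covered by that check.

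The members, gene lists and markers were chosen with earlier results of these data known. Of the lists the text names EZH2, EZH1 and at most 4 called genes a list with the largest change in each line. A caption also names RASSF1, whose replicate arrays disagreed. For each member called by its main probe the 3 most correlated genes among the brighter 50% are named. Array numbers were tested as pairs: deviations of same-numbered arrays correlated at -0.02 in PLC5 and -0.104 in HepG2, so the numbers were not taken as pairs. Alternatives covered normalization, dim probes, pseudocount and floor, variance model, replicate block, arrays in the fit, probes per gene, a size threshold and each array left out.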

Additional observations from a re-analysis of the deposited data

Results flagged for a closer look

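The GSK343 change of 3 genes of the list of other genes reported as silenced by EZH2 differed between PLC5 and HepG2 by limma's test of the difference itself, which called 0.84% of all genes. CDKN2B differed by 1.41 ± 0.18 (PLC5 minus HepG2, adjusted p 0.0256), with a change of 0.33 in PLC5 and of -1.08 in HepG2; its other probe gave 1.00 and was not called (adjusted p 0.195), and the call was made under 9 of 20 alternatives. CDH1 differed by -1.11 ± 0.19 (adjusted p 0.049), with -0.32 in PLC5 and 0.78 in HepG2, and was called under 6 of 20. RARB differed by -1.48 ± 0.23 (adjusted p 0.0462), with -0.82 in PLC5, where it read 3679 and 3744 with GSK343 against 6365 and 6777 in control, and 0.65 in HepG2, where every array was dim. With a floor of 64 the HepG2 change of RARB was 0 and the difference -0.82, so the size of the difference is not fixed by these arrays; it was called under 9 of 20. CDH1 lost its call without any 1 of the 8 arrays, and CDKN2B and RARB each lost theirs without any 1 of 7 arrays: HepG2 control array 2 could be left out for CDKN2B and HepG2 control array 1 for RARB. No explanation of these differences was tested.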

How the results depend on the processing

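Of the comparisons of single member probes with the values in the report, 740 kept direction and call, 24 lost a call, 7 gained one, 3 changed sign with a call in the report or under the alternative, and 24 changed sign with no call in either; the cause of the losses was not tested. The 3 were those of DLC1 probe 1 between the controls without normalization (0.0091) and of TIMP2, called only under the alternatives, between the controls without normalization (0.5256) and with quantile normalization within each line (0.3656); without normalization the median of all probes shifts by 0.50 in HepG2, 0.11 in PLC5 and 0.86 between the controls. Member probes called in HepG2 numbered 2, and 1 with a replicate block, with 1 probe a gene and with a log2 size of at least 1; 3 were called with no normalization (3 higher), a floor of 64 and only the 4 arrays (1 higher and 2 lower each). Of all calls in PLC5, 75.4% were higher, 32.6% with median centring and 92.1% without normalization; between the controls 46.7%, and 85.3% with normalization within each line and 88.8% without normalization; for the difference 47.1%, and 7.1% without normalization. Those called in PLC5 numbered 1, and 0 with median centring, no normalization, a pseudocount of 16, a floor of 64, no variance trend, the replicate block, only the 4 arrays and the size threshold. With 1 array left out at a time, member calls ranged from 0 to 2 in HepG2, 0 to 1 in PLC5, 0 to 0 for the difference and 6 to 8 between the controls. The DKK1 call in HepG2 was lost with the block (adjusted p 0.0602). The replicate block lowered calls over all probes to 690 in HepG2, against 2572; crossing the numbers gave 2570, with 2 member probes in HepG2 and 1 in PLC5. Of relatives and partners, 7 were called in HepG2, 4 with no trend and 2 with the block or the size threshold; 1 in PLC5, 0 with no normalization, no trend, either block, 4 arrays or the size threshold; 0 for the difference, 1 with robust moderation; and 29 between the controls, 17 with the size threshold. Of the other genes reported as silenced, 4 were called in HepG2, 2 with a floor of 64 or no trend and 1 with the block or the size threshold; 0 in PLC5, 1 with the dimmest 50% left out, the pseudocount or 4 arrays, and 3 with a floor of 64; and 3 for the difference, 1 with median centring and 0 with no trend or either block. Of the PRC2 list, 0 were called in HepG2, 3 with no normalization; 0 in PLC5, 2 with median centring and 1 with the dimmest 50% left out; and 9 between the controls, 4 with the size threshold. With 1 array left out at a time, the HepG2, PLC5, difference and control counts ranged over 2 to 7, 0 to 0, 0 to 1 and 26 to 30 for relatives, 1 to 3, 0 to 1, 0 to 1 and 19 to 21 for the silenced genes, and 0 to 0, 0 to 0, 0 to 0 and 7 to 9 for PRC2. Signal over background limits FBXO32, DLC1 probe 3 and TIMP3 in PLC5, which lay at or near the dim range. Alternatives on the list counts, and the crossed block, were chosen after seeing the data.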
